A study of Mus musculus with 8 samples.

Results

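The 9 genes described here encode transcription factors of mesenchymal cells: *Twist1*, *Twist2*, *Snai1*, *Snai2*, *Zeb1*, *Zeb2*, *Prrx1*, *Tcf21* and *Osr1*. They were chosen by name, out of the 21938 protein-coding genes of the mouse GENCODE annotation. The choice used no rule on values measured here, but earlier results of these data were known. For each gene, the peaks within 2 kb of any of its transcription start sites (TSSs), in its body and in 50 kb on either side were collected. The study profiled PBRM1 and BRG1 by chromatin immunocleavage sequencing (ChIC-Seq), in 3 replicates each, in stromal cells isolated from the uteri of D4 WT mice. In this assay an antibody brings micrococcal nuclease to the sites that its antigen occupies, and the released fragments are sequenced. Each preparation came from the uterine horns of 5 to 10 pooled animals, aged 8 to 12 weeks, and the labels call the time a day of pregnancy in one field and the animals pseudopregnant in another. The cells were plated for some hours in serum-containing medium, and libraries were made from 50000 cells fixed with 1% formaldehyde for 5 minutes according to the labels. All samples shared genotype, day and cell type, so that the antibody was the only labelled difference, and 2 IgG libraries were not analysed here.

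PBRM1 is the polybromo subunit that defines the PBAF form of the SWI/SNF remodeling complex, whereas BRG1 is an ATPase of PBAF and of the other BAF forms. Mesenchymal cells such as fibroblasts and uterine stromal cells keep a shared set of transcription factors. SNAI1, SNAI2, ZEB1 and ZEB2 are zinc finger repressors that bind E-boxes, short DNA elements of the form CANNTG, and silence epithelial genes such as *Cdh1*. TWIST1, TWIST2 and TCF21 are basic helix-loop-helix factors that dimerize with E proteins, PRRX1 is a paired-type homeodomain factor, and OSR1 is an odd-skipped zinc finger factor of the urogenital mesenchyme. In the uterus, the stroma that carries such factors lies beneath the epithelium and transforms into the decidua after implantation.

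The PBRM1 replicates had 8868777 to 16505239 fragments and 21912 to 26363 peaks, and the BRG1 replicates had 11506964 to 14595089 fragments and 36656 to 40610 peaks. PBRM1 replicate 3 was the deepest of the 6 and had the fewest peaks. Peaks were called against the local background of each library with no control library, so fold enrichments printed here are relative to that background and a site without a peak has no value. A peak records fragments recovered with an antibody and not expression of the gene beside it. Of all protein-coding genes, 68.6% had a pooled PBRM1 and 72.1% a pooled BRG1 promoter peak, and 51.9% had one in all 6 replicates. The promoters of 12 stromal marker genes, among them *Vim*, *Pdgfra* and *Nr2f2*, all had a pooled peak of both antibodies, and 8 of the 12 had one in all 6 replicates. *Col1a1*, *Col1a2*, *Col3a1* and *Hoxa11* lacked one in some replicates, *Col3a1* in every BRG1 and *Hoxa11* in every PBRM1 replicate. Of 9 epithelial marker genes, 9 had a pooled promoter peak of both antibodies and 1, *Krt7*, had one in all 6 replicates. Of 5 endothelial marker genes, 3 had a pooled PBRM1 and 4 a pooled BRG1 promoter peak, with *Kdr* in all 6 replicates. Of 6 leukocyte marker genes, 0 had a pooled PBRM1 and 1 a pooled BRG1 promoter peak, and no replicate had one. What these other cell types contribute to the peaks of the 9 genes was not tested.

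All 9 genes had a promoter peak in both pooled lists, which were called by the authors on the fragments of the 3 replicates together. Among all protein-coding genes, 68.6% had a promoter peak in the pooled PBRM1 list and 72.1% in the pooled BRG1 list. BRG1 promoter peaks were found for 9 of the 9 genes in each of its 3 replicates, where 66.1%, 65.1% and 65% of all genes had one. The PBRM1 replicates had them at 9, 8 and 6 of the genes, against 60%, 60.7% and 55.3% of all genes. All 3 PBRM1 replicates had a promoter peak at 6 of the genes, *Twist2*, *Snai1*, *Snai2*, *Zeb1*, *Tcf21* and *Osr1*, as did 52.2% of all genes, and all 3 BRG1 replicates at 9, against 61.4%. With a promoter distance of 1 kb these counts were 6 for PBRM1 and 8 for BRG1. At a −log10 q of at least 5 they were 4 and 7. Among the 20000 peaks of each list with the highest −log10 q they were 5 and 6. No member was without a promoter peak in every PBRM1 or in every BRG1 replicate, as 35.3% and 30.5% of all genes were. Separate promoter peaks, 2 or more, were present at 4 members in the pooled PBRM1 list and at 7 in the pooled BRG1 list, against 34.1% and 41.4% of the genes with a promoter peak. The 3 members outside the 6 named lacked one in PBRM1 replicate 3, and *Prrx1* lacked one in replicate 2 as well. Without PBRM1 replicate 3, 8 of the 9 genes had a promoter peak in the remaining PBRM1 replicates. When pooled PBRM1 peaks also had to overlap a peak in all 3 replicates, 5 of the 9 genes had a promoter peak, and with a peak required in each remaining replicate the count was 5 without PBRM1 replicate 1 or 2. Annotated TSSs ranged in number from 1 at *Twist1*, *Snai1* and *Snai2* to 11 at *Zeb1* and 29 at *Zeb2*, so that the promoter windows of the latter genes covered more sequence.

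*Snai2* had the highest mean promoter fold enrichment of the 9 genes with both antibodies. Its strongest promoter peak reached 9.30, 9.16 and 9.05 in PBRM1 replicates 1, 2 and 3, a mean of 9.17 ± 0.127 (SD, n = 3). The BRG1 replicates had 11.3, 10.5 and 8.96, a mean of 10.2 ± 1.17 (SD, n = 3). The PBRM1 replicates were nearly equal, and BRG1 replicate 3 was the low BRG1 sample. *Snai1* followed, with 9.66, 8.15 and 5.31 in the PBRM1 replicates, a mean of 7.71 ± 2.21 (SD, n = 3), and 9.62, 9.56 and 10.3 in the BRG1 replicates, a mean of 9.82 ± 0.411 (SD, n = 3). PBRM1 replicate 3 was the low sample, whereas the BRG1 replicates lay close together.

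The other genes formed a lower group in which the order was not separated by the replicate error. *Zeb1* had 4.94, 6.37 and 3.88 in the PBRM1 replicates and 6.22, 4.98 and 5.81 in the BRG1 replicates. The means were 5.06 ± 1.25 and 5.67 ± 0.636 (SD, n = 3 each), but within each antibody the strongest *Zeb1* promoter peak lay at a different TSS in every replicate, so that neither mean describes 1 site. The *Zeb1* peak of PBRM1 replicate 3 lay at the site 12035 bp into the gene, at the start of a processed transcript, and this replicate had no peak at the first TSS. With the transcripts that GENCODE tags as basic, 5 genes in place of 6 had a promoter peak in all 3 PBRM1 replicates. *Osr1* had 5.26, 5.15 and 3.14 with PBRM1 and 4.46, 6.26 and 5.21 with BRG1, with means of 4.52 ± 1.19 and 5.31 ± 0.905 (SD, n = 3 each). PBRM1 replicate 3 was again the low PBRM1 sample. *Tcf21* had 5.37, 5.66 and 4.45 with PBRM1 and 4.77, 4.71 and 5.11 with BRG1, with means of 5.16 ± 0.632 and 4.86 ± 0.218 (SD, n = 3 each). *Twist2* had 4.58, 4.79 and 5.12 with PBRM1 and 4.79, 5.33 and 4.71 with BRG1, with means of 4.83 ± 0.271 and 4.94 ± 0.333 (SD, n = 3 each).

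*Twist1*, *Zeb2* and *Prrx1* were the genes without a complete set of PBRM1 promoter peaks. *Twist1* had 5.81 and 3.87 in PBRM1 replicates 1 and 2 and 4.58, 5.47 and 4.87 in the BRG1 replicates, with a BRG1 mean of 4.97 ± 0.452 (SD, n = 3). *Zeb2* had 4.03 and 5.26 in PBRM1 replicates 1 and 2 and 4.69, 5.82 and 3.53 in the BRG1 replicates, with a BRG1 mean of 4.68 ± 1.15 (SD, n = 3). As at *Zeb1*, the strongest *Zeb2* promoter peak lay at a different TSS in each BRG1 replicate. *Prrx1* had 3.52 in PBRM1 replicate 1 and 4.23, 4.05 and 3.66 in the BRG1 replicates, with a BRG1 mean of 3.98 ± 0.291 (SD, n = 3), the lowest of the 9 genes. When neighbours in the order of means were compared, the step from *Snai1* to the next gene exceeded the larger SD of the pair for PBRM1 (2.55 against 2.21) and for BRG1 (4.15 against 0.636). No other step did so with either antibody.

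**Figure D1:**
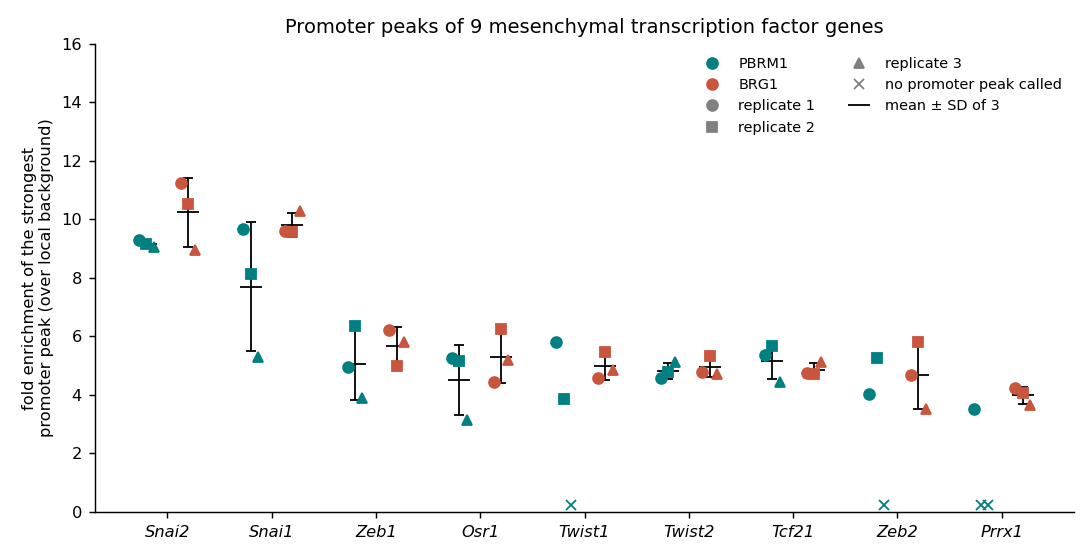
Fold enrichment (y axis, over the local background of the library) of the strongest promoter peak of each gene (x axis, in the order of the BRG1 mean) in the 3 PBRM1 and 3 BRG1 replicates, with bars for the mean ± SD where all 3 replicates had a peak and crosses where no promoter peak was called. The means of *Snai2* and *Snai1* stand above the other means drawn, but the *Snai1* value of PBRM1 replicate 3 (5.31) lies among those of the other genes. The crosses fall on PBRM1 at *Twist1*, *Zeb2* and *Prrx1*.

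Against all genes with a promoter peak, *Snai1* and *Snai2* were the members above the median. The median fold enrichment of the strongest pooled promoter peak was 6.90 over 15060 genes for PBRM1 and 8.74 over 15818 genes for BRG1. For the 9 members the medians were 5.02 and 5.07. *Snai2* had 11.2 and 11.7 in the pooled PBRM1 and BRG1 lists, above 91.9% and 77.7% of the genes, and *Snai1* had 8.34 and 10.5, above 69.2% and 67.4%. The other 7 ranged from 3.86 (*Prrx1*) to 5.72 (*Tcf21*) with PBRM1 and from 3.67 (*Prrx1*) to 6.00 (*Zeb1*) with BRG1, and they lay above 8.69% to 32.8% and 3.89% to 22.8% of the genes. The CpG content of the member promoters was near that of all genes. In the 1001 bp around the summit of the strongest pooled BRG1 promoter peak, 7 of the 9 members had a CpG ratio (observed over expected) of at least 0.6, which is 77.8%, against 69.1% of all genes with a BRG1 promoter peak. The exceptions were *Zeb2* (0.480) and *Osr1* (0.537), and the members above that ratio included *Snai1* (0.775) and *Snai2* (0.624). Genes with a ratio of at least 0.6 had a median BRG1 fold enrichment of 9.59. Whether CpG content bears on the values of the members was not tested.

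**Figure D2:**
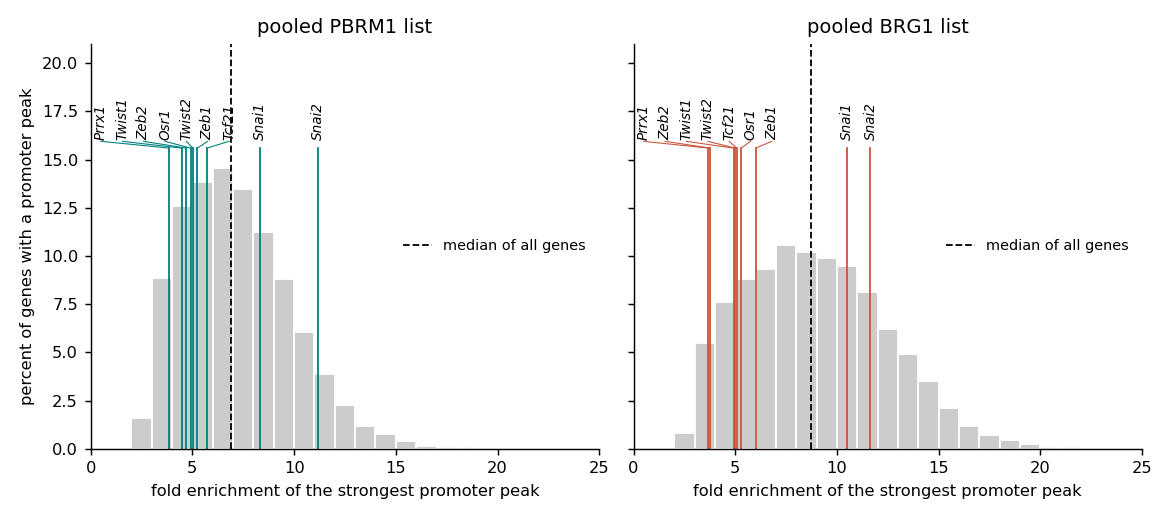
Share of all genes with a promoter peak (y axis, percent) by the fold enrichment of their strongest promoter peak (x axis) in the pooled PBRM1 list and the pooled BRG1 list, with a line for each member gene and a dashed line for the median of all genes. The lines of *Snai1* and *Snai2* lie to the right of the median in both lists, and those of the other 7 genes to its left.

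Because fold enrichments of different antibodies do not share a scale, the antibodies were compared by the rank of a peak in its own list, given as a percentile by −log10 q, with 0 for a gene without a promoter peak. The BRG1 lists were longer, and a list with more weak peaks gives the same promoter a higher percentile, so the ranks were also taken among the 20000 peaks with the highest −log10 q of each list, an alternative chosen after the data were seen. The mean percentile over the 9 genes was 45.5, 55.3 and 33.7 in the PBRM1 replicates (44.8 ± 10.8, SD, n = 3). It was 62.0, 64.3 and 57.4 in the BRG1 replicates (61.2 ± 3.50, SD, n = 3). Each BRG1 replicate lay above each PBRM1 replicate, with a difference, PBRM1 minus BRG1, of −16.4 percentile points (exact permutation test, two-sided, p = 0.1, which is the lowest p of a 3 against 3 design, and 0.15 after Benjamini-Hochberg adjustment over 3 tests). The difference was therefore not significant in this design. It was −13.4 over the 15444 genes with a promoter peak in any replicate. In lists of equal length the direction turned. The members then had 38.0, 45.1 and 31.3 in the PBRM1 replicates and 28.5, 35.9 and 27.6 in the BRG1 replicates, which overlapped, with a difference of 7.51 (exact permutation test, two-sided, p = 0.2). The difference was −1.32 over the 14167 genes with a promoter peak in any of the cut lists. A peak below the cut counted as 0. *Prrx1*, with 0 in all 6 cut lists, is in the member mean but not among the 14167 genes. Separation was also lost in the full lists, each with p = 0.2 (exact permutation test, two-sided), when peaks were ranked by fold enrichment (−10.7), with a promoter distance of 1 kb (−12.0) and with the 6 members that had a promoter peak in all 6 replicates (−11.4). By gene, *Snai1* and *Prrx1* had every BRG1 percentile above every PBRM1 percentile, 2 of 9, where 37.3% of the 15444 genes with a promoter peak in any replicate did. No member had the opposite arrangement, which 2.05% of the genes had. At *Snai1* the PBRM1 percentiles were 89.5, 90.8 and 70.8 and the BRG1 percentiles 94.0, 92.1 and 94.4. At *Snai2* they were 79.3, 88.5 and 93.7 with PBRM1 and 90.8, 87.5 and 81.2 with BRG1, and the antibodies overlapped. In lists of equal length no member had every BRG1 percentile above every PBRM1 percentile, which 12.2% of the genes had, and *Tcf21* had the opposite arrangement, as did 10.7%. Its percentiles were then 36.0, 52.3 and 50.1 with PBRM1 and 10.9, 11.1 and 19.0 with BRG1. These ranks therefore give no order of the antibodies at the 9 promoters that holds for both ways of ranking.

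Over the 9 loci, which include 50 kb on either side of each gene, the pooled lists held 69 PBRM1 and 89 BRG1 peaks. Of these, 21 and 27 lay at member promoters, 12 and 14 elsewhere in a gene body, 7 and 12 in the upstream flank, 27 and 34 in the downstream flank and 2 and 2 at promoters of *Spata2* and *Rnf114*, which neighbour *Snai1*. The PBRM1 replicates had 25, 34 and 19 locus peaks (26.0 ± 7.55, SD, n = 3) and the BRG1 replicates 53, 46 and 44 (47.7 ± 4.73, SD, n = 3). The groups did not overlap, and they differed by −21.7 locus peaks (exact permutation test, two-sided, p = 0.1, adjusted p = 0.15). With the top 20000 peaks of each list the difference was −4.67 and the groups overlapped (exact permutation test, two-sided, p = 0.3). The counts were also taken per 10000 peaks of the replicate. They were then 10.9, 12.9 and 8.67 for PBRM1 (10.8 ± 2.11, SD, n = 3) and 13.1, 12.5 and 11.7 for BRG1 (12.4 ± 0.681, SD, n = 3). On this scale the replicates of the antibodies overlapped, with a difference of −1.62 (exact permutation test, two-sided, p = 0.3, adjusted p = 0.3). Without PBRM1 replicate 3 this difference was −0.546. In the pooled lists the order was the opposite, with 12.5 locus peaks per 10000 for PBRM1 and 10.8 for BRG1.

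**Figure D3:**
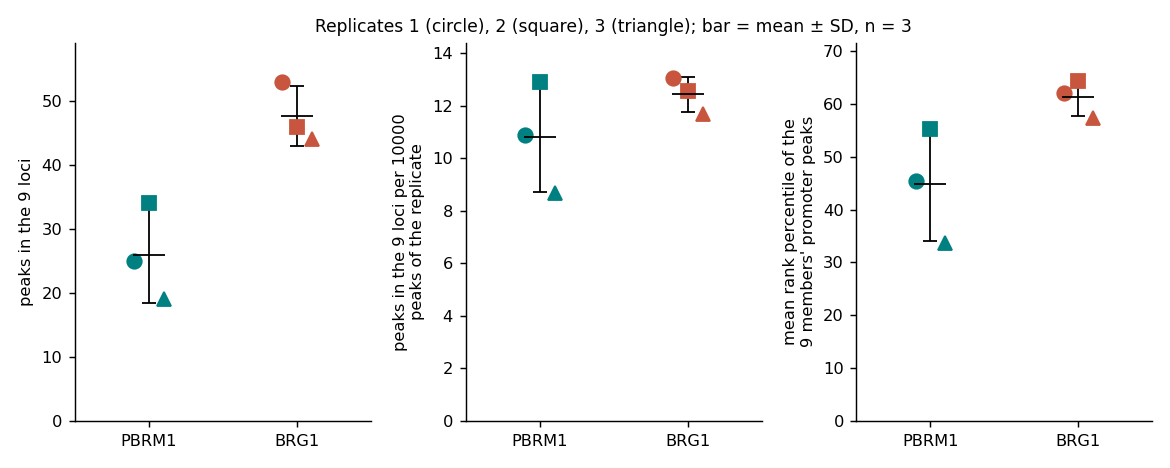
Number of peaks in the 9 loci, the same per 10000 peaks of the replicate, and the mean rank percentile of the promoter peaks of the 9 genes (y axes) for the 3 PBRM1 and 3 BRG1 replicates (x axis), with the mean ± SD. All peaks of each list were used. The antibodies are apart in the left and right panels and overlap in the middle panel, where the PBRM1 replicates run from 8.67 to 12.9.

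The peaks of both pooled lists merged into 102 sites, of which 51 (50%) held a peak of both antibodies, against 45.3% of all sites in the genome. Of the pooled PBRM1 peaks, 52 of 69 (75.4%, 95% Wilson interval 64.0% to 84.0%, which covers counting error only) overlapped a pooled BRG1 peak, and over the whole genome 78.6% did. Of the pooled BRG1 peaks, 55 of 89 (61.8%, 51.4% to 71.2%) were shared with PBRM1, as were 52.4% over the genome. Support by the replicates was uneven. A peak was present in all 6 replicates at 12 of the 102 sites (11.8%) and in none at 32 (31.4%), against 14.0% and 38.9% of all sites in the genome. When pooled peaks had to overlap a peak in all 3 replicates of their antibody, 13 PBRM1 and 26 BRG1 peaks remained and 12 of the 13 PBRM1 peaks (92.3%) overlapped a BRG1 peak. Of the pooled PBRM1 peaks, 29 of 69 (42.0%) overlapped no peak of a PBRM1 replicate, as did 40.8% over the genome, and of the pooled BRG1 peaks 22 of 89 (24.7%) overlapped none of a BRG1 replicate, against 37.0%. With a peak required in both remaining replicates, the counts were 15, 14 and 19 without PBRM1 replicates 1, 2 and 3 and 29, 32 and 33 without BRG1 replicates 1, 2 and 3. Away from all protein-coding promoters, 5 of 72 member sites (6.94%) had a peak in all 6 replicates, where 3.77% of 67687 such sites in the genome did. These 5 sites lay at *Snai1* (3) and *Twist2* (2).

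**Figure D4:**
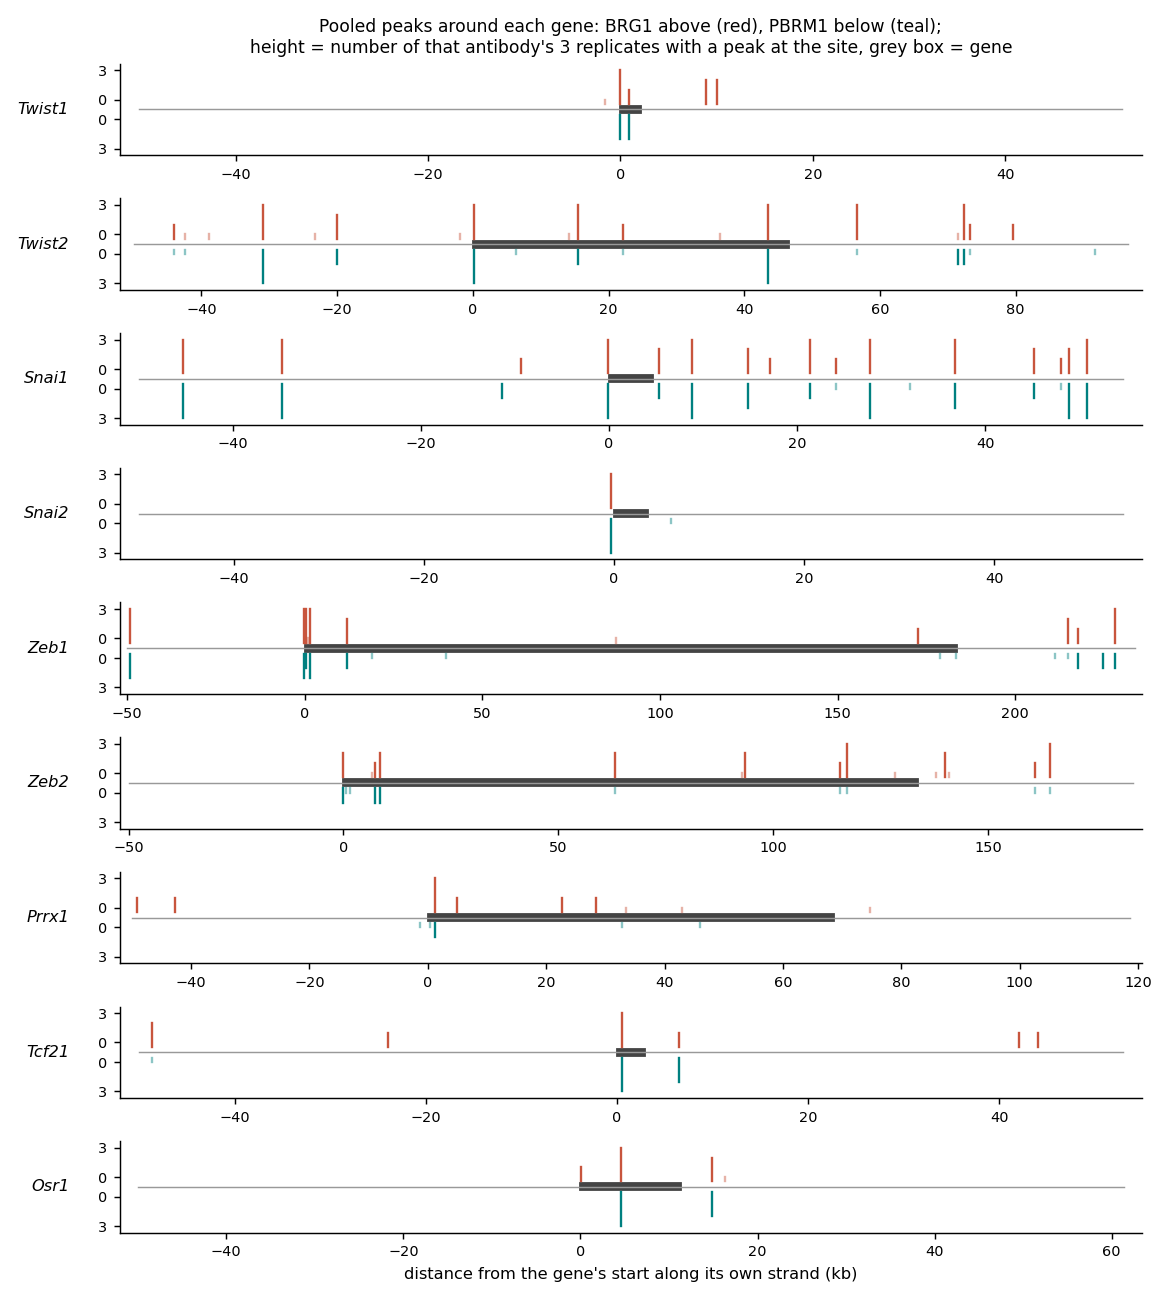
Pooled peaks around each gene by the distance of their summit from the start of the gene (x axis, kb along the strand of the gene, scaled separately for each gene), with BRG1 above and PBRM1 below the line, the gene as a grey box, and the height of a bar (y axis) giving how many of the 3 replicates of that antibody had a peak at the site, where the faint short bars stand for 0. Peaks are dense on the downstream side of *Snai1* and across *Twist2*, and *Snai2* has a single tall bar per antibody at its start.

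*Snai1* (chromosome 2, 167538195 to 167542814, plus strand, mm10), whose product represses *Cdh1*, had the densest locus. It held 15.3 pooled peaks per 100 kb with either antibody, above 99.2% of protein-coding genes for PBRM1 and 96.2% for BRG1, where the medians were 3.67 and 5.45. Single replicates had 10.0 ± 1.73 PBRM1 and 13.0 ± 2.00 BRG1 peaks there (SD, n = 3 each). Most of them lay in the downstream flank, part of it inside the long noncoding gene *Gm11476*, and no peak outside promoters in the upstream flank was shared by replicates of both antibodies. The site at +27704 bp from the *Snai1* start had the highest −log10 q of the pooled BRG1 peaks outside promoters. It reached 6.65, 5.51 and 5.01 with PBRM1 and 5.96, 7.85 and 8.01 with BRG1, with means of 5.72 ± 0.840 and 7.27 ± 1.14 (SD, n = 3 each). PBRM1 replicate 1 was the high PBRM1 sample and BRG1 replicate 1 the low BRG1 sample. At +8780 bp the PBRM1 replicates had 4.04, 3.99 and 3.64 and the BRG1 replicates 5.38, 4.69 and 5.08. The replicates of each antibody lay close together. At +50765 bp all 6 values lay between 4.08 and 4.52. A further site at +36819 bp had a peak in all replicates except PBRM1 replicate 1, with 5.25 and 5.65 for PBRM1 and 8.17, 7.65 and 8.26 for BRG1.

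The *Snai1* sites are shown because they were found in all 6 replicates. Each line gives the plus strand of mm10 over 151 bp centered on the BRG1 summit, in lower case, with exact copies of CACCTG or CATCTG, read on either strand, in capitals. CACCTG is the E-box form known for Snail and ZEB factors and CATCTG a form known for TWIST dimers. The promoter sequence was 73.5% G or C, had its center at −131 bp from the TSS, outside annotated exons, and had 1 copy of CACCTG. The sites at +8780, +27704 and +50765 bp had no copy. The first of them was intergenic, and the others lay in introns of *Gm11476*.
*Snai1* promoter (chr2:167537989-167538139): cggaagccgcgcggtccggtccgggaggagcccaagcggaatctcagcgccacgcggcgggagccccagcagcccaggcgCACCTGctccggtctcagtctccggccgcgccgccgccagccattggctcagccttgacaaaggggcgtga
*Snai1* +8780 bp (chr2:167546900-167547050): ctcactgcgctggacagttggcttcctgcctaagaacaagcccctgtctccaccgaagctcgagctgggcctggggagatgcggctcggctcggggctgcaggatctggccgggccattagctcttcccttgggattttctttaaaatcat
*Snai1* +27704 bp (chr2:167565824-167565974): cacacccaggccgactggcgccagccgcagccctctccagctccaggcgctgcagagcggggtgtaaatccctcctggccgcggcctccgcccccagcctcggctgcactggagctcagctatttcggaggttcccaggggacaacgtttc
*Snai1* +50765 bp (chr2:167588885-167589035): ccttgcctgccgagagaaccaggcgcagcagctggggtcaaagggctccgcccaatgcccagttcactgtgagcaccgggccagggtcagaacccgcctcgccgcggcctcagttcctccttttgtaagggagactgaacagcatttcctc

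*Snai2* (chromosome 16, 14705852 to 14709385, plus strand), the paralog of *Snai1*, had the opposite layout. Within its body and 50 kb flanks the pooled BRG1 list had no peak other than that at the promoter, and the pooled PBRM1 list had 1 further peak, at +5987 bp, which no replicate called. Its 1.93 PBRM1 and 0.966 BRG1 pooled peaks per 100 kb were above 32.1% and 19.4% of protein-coding genes. The pooled peaks at the promoter covered 818 bp for PBRM1 and 914 bp for BRG1, and the BRG1 summit lay at −332 bp from the TSS. The sequence at that summit, with 1 copy of CATCTG in capitals, is shown because it was the only *Snai2* site of the replicates.
*Snai2* promoter (chr16:14705445-14705595): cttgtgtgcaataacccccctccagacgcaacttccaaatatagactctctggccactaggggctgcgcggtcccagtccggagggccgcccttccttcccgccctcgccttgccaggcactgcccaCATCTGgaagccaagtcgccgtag

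*Twist2* (chromosome 1, 91801461 to 91848028, plus strand), which encodes the dermal and fibroblast paralog of TWIST1, held 9.55 PBRM1 and 13.0 BRG1 pooled peaks per 100 kb, above 90.3% and 91.5% of protein-coding genes. The site at −30962 bp reached 4.00, 4.68 and 4.71 with PBRM1 and 6.01, 7.24 and 5.87 with BRG1. BRG1 replicate 2 was the high BRG1 sample and PBRM1 replicate 1 the low PBRM1 sample. The intronic site at +43518 bp had 5.04, 6.25 and 5.46 with PBRM1 and 7.09, 5.65 and 6.69 with BRG1. Another intronic site at +15466 bp had the highest −log10 q of the pooled BRG1 peaks outside promoters, with 5.70, 6.21 and 7.00 in the BRG1 replicates (6.30 ± 0.657, SD, n = 3) but a peak in PBRM1 replicate 2 only, of 5.04. The +15466 bp site was picked by its BRG1 rank, so its contrast with PBRM1 is not independent of the choice. Each of these sites had a fold enrichment at or above that of the *Twist2* promoter in the pooled lists, where the promoter had 5.02 with PBRM1 and 5.00 with BRG1. The −30962 bp and +43518 bp sites are shown as the *Twist2* sites of all 6 replicates away from the promoter, with the copy of CATCTG on the minus strand of the second in capitals.
*Twist2* −30962 bp (chr1:91770424-91770574): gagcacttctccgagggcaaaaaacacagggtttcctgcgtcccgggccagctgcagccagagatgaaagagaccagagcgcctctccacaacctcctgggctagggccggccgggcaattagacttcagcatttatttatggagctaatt
*Twist2* +43518 bp (chr1:91844904-91845054): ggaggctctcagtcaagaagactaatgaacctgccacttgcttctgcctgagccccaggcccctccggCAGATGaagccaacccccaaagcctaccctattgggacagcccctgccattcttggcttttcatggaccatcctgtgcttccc

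*Twist1* (chromosome 12, 33957671 to 33959829, plus strand), a regulator of cranial and limb mesenchyme, had peaks at its promoter and at sites 8935 and 10038 bp from its start. The latter pair was called with BRG1 in 2 replicates each, at 3.90 and 3.82 and at 3.12 and 5.55, and with PBRM1 in none. The upstream flank, which contains *Ferd3l*, had no pooled peak outside the promoter window. The density of 2.94 PBRM1 and 5.87 BRG1 peaks per 100 kb was above 42.9% and 53.5% of protein-coding genes.

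*Osr1* (chromosome 12, 9570116 to 9581500, plus strand), a gene of the intermediate mesoderm, had its promoter peak of all 6 replicates at +4592 bp, beside the second annotated TSS, whereas the first TSS had a BRG1 peak in 1 replicate (4.06) and none with PBRM1. A site at +14904 bp, downstream of the gene, had 8.82 and 11.7 in BRG1 replicates 2 and 3 and 4.56 and 5.22 in PBRM1 replicates 2 and 3. The remaining replicates of both antibodies had no peak there, although the BRG1 values were higher than those of the promoter in the same replicates. Its sequence is shown because of these values, with CATCTG on the minus strand in capitals.
*Osr1* +14904 bp (chr12:9584945-9585095): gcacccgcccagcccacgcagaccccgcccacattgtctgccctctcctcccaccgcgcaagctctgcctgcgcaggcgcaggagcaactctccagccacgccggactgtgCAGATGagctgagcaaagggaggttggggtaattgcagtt

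*Tcf21* (chromosome 10, 22817281 to 22820174, minus strand), which marks fibroblast and epicardial lineages, had its site of all 6 replicates at +496 bp. A site at +6514 bp, past its 3′ end, had 4.50 and 4.74 in PBRM1 replicates 1 and 2 and 4.25 in BRG1 replicate 3. The site outside promoters that ranked highest with BRG1, at −48608 bp, had 3.87 and 5.45 in 2 BRG1 replicates. *Prrx1* (chromosome 1, 163245119 to 163313710, minus strand), a regulator of limb and craniofacial mesenchyme, had 13 sites, of which 1, at +1275 bp, had pooled peaks of both antibodies. That site had a peak in 4 replicates, and each of the others had one in 1 replicate or none. The site outside promoters that ranked highest with BRG1, at +4886 bp, was called in BRG1 replicate 1 (4.64).

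*Zeb1* (chromosome 18, 5591860 to 5775467, plus strand) and *Zeb2* (chromosome 2, 44983632 to 45117395, minus strand) are the long genes of the group. At *Zeb1* the highest-ranking site outside promoters lay +227970 bp from the start, beyond the 3′ end of the gene. It had 8.16, 9.05 and 10.7 with BRG1 (9.30 ± 1.29, SD, n = 3) and 7.37 in PBRM1 replicate 2, the only PBRM1 replicate with a peak. The BRG1 values were above those of the *Zeb1* promoter in every BRG1 replicate. The site was picked by its BRG1 rank, so neither this nor the contrast with PBRM1 is independent of the choice. A site at −49049 bp had 6.29 and 5.91 in PBRM1 replicates 1 and 2 and 4.27, 5.06 and 5.72 with BRG1. PBRM1 replicate 3 had no peak there. *Zeb2* had no site with a peak in all 3 PBRM1 replicates. The *Zeb2* site outside promoters that ranked highest with BRG1, in the gene body at +117284 bp, had 5.05, 6.28 and 4.71 with BRG1 (5.35 ± 0.827, SD, n = 3). It had no PBRM1 replicate peak, but it was likewise picked by its BRG1 rank. A site at +164402 bp in the downstream flank had the same pattern, with 5.83, 4.46 and 4.72. Antisense and other noncoding genes overlap both loci, among them *Zeb2os* and *Gm10125*, and peaks there cannot be assigned to 1 of the overlapping genes.

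**Figure D5:**
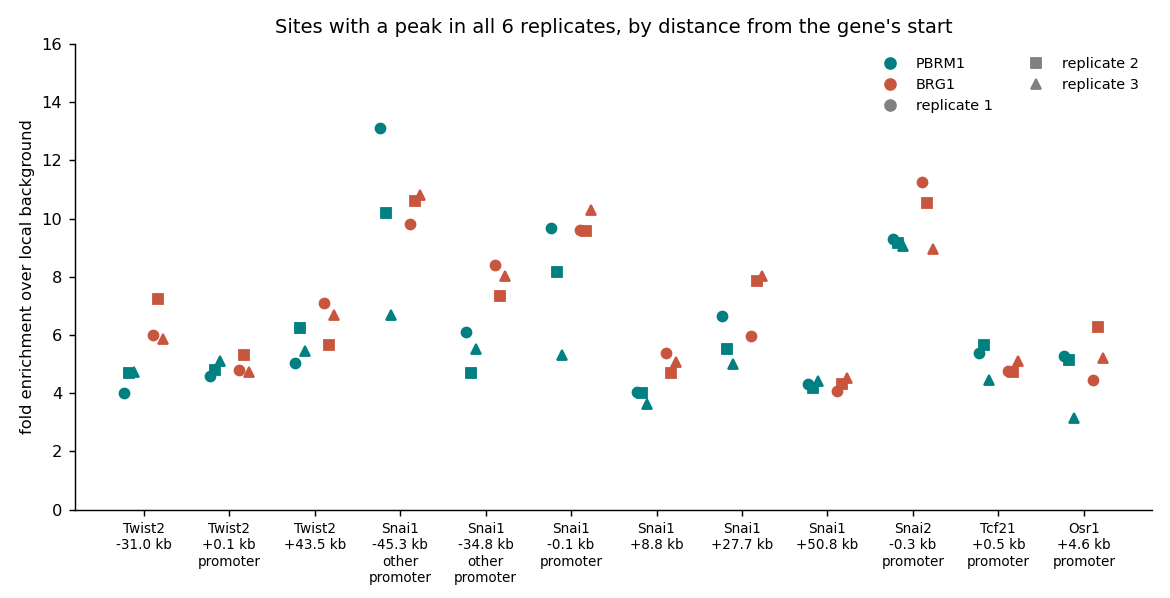
Fold enrichment (y axis) in the 3 PBRM1 and 3 BRG1 replicates at the 12 sites of the 9 loci with a peak in all 6 replicates (x axis, labelled with the gene and the distance from its start). The sites belong to *Twist2*, *Snai1*, *Snai2*, *Tcf21* and *Osr1*, and the 2 marked as promoters of other genes lie at the shared start of *Spata2* and *Rnf114* and at a later TSS of *Rnf114*, beside *Snai1*.

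Exact copies of 5 short motifs were then counted in the 301 bp around the summits of the pooled BRG1 peaks, on both strands. At the 27 promoter peaks of the members, CACCTG was present in 5 (18.5%, against 22.1% of all 24481 promoter peaks) and CATCTG in 2 (7.41% against 14.5%). The AP-1 element TGANTCA was present in 0 of these windows, against 6.23% of all promoter peaks. The ETS element CCGGAAG was found in 1 (3.70% against 9.96%). The letters GATAAG, an element of zinc finger factors of the same name, were found in 2 (7.41% against 4.40%). At the 60 peaks outside promoters, TGANTCA was present in 15 (25.0% against 14.3% of 58126 such peaks). In the same windows CATCTG was present in 18 (30.0% against 27.7%) and CACCTG in 9 (15.0% against 21.3%). The GATAAG letters were in 3 of them (5.00% against 7.41%), and the ETS element was in 0 (against 2.63%). None of the 5 motifs contains another. The peaks of a locus are not independent, so the shares are a description and were not tested.

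The genes around these factors in their pathways were taken from lists of names, also chosen with earlier results of these data known. Of 21 related mesenchymal or E-box factor genes, 17 had a pooled PBRM1 and 19 a pooled BRG1 promoter peak. Of all protein-coding genes, 68.6% and 72.1% did. All 3 PBRM1 replicates had one at 7 of the 21 and all 3 BRG1 replicates at 16, against 52.2% and 61.4% of all genes. All 6 replicates had one at 7. *Ferd3l*, *Hand1* and *Meox1* had none in any replicate. The closest relatives of the members differed among themselves: *Osr2* had pooled fold enrichments of 7.34 and 8.82 with PBRM1 and BRG1 and a promoter peak in all 6 replicates, *Snai3* had 5.30 and 8.11 with 2 PBRM1 replicates, and *Prrx2* had 4.71 and 7.28 with 2 PBRM1 replicates. All 3 E protein genes (*Tcf3*, *Tcf4*, *Tcf12*), the dimer partners of the TWIST factors, had promoter peaks in all 6 replicates, as did the 4 *Id* genes, whose products sequester E proteins. The same held for the 6 genes of corepressors that Snail and ZEB factors recruit (*Ctbp1*, *Ctbp2*, *Hdac1*, *Hdac2*, *Kdm1a* and *Rcor1*), with 9.29 and 15.3 at *Hdac1*. Across the genome, 51.9% of genes had a promoter peak in all 6 replicates. The products of the 5 miR-200 family genes target *Zeb1* and *Zeb2* transcripts. These genes had no peak within 2 kb of their annotated starts in any replicate. The pooled BRG1 list had a weak one there, of 3.17 at *Mir200a*, *Mir200b* and *Mir429*, which share a peak, and of 2.48 at *Mir141* and *Mir200c*. Peaks farther from these starts were not counted, and no share over all microRNA genes was taken.

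For the 6 members with promoter peaks in all 6 replicates, the gene with the most similar set of fold enrichments was sought among 11375 other genes by the Euclidean distance over the 6 log2 values. The nearest were *Ifrd1* for *Snai1* (0.109 log2 units) and *Mbd5* for *Snai2* (0.174), *Arpc1b* for *Twist2* (0.215), *Tgm5* for *Zeb1* (0.194), *Pxn* for *Tcf21* (0.212) and *Efnb3* for *Osr1* (0.128). The median distance to all genes ranged from 0.917 for *Snai1* to 1.86 for *Osr1*.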

How the data were processed

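PBRM1 and BRG1 ChIC-Seq peak lists of D4 uterine stromal cells were analysed, 3 replicates each, grouped by their labels. The 2 IgG libraries were not analysed here. Per the labels and the methods, the authors aligned read pairs to mm10 with Bowtie2, removed duplicates, and called peaks with MACS2, on each replicate and on the merged replicates of an antibody. Per the file headers, no control file was used. The deposited values of a peak are a pileup signal, a fold enrichment (a ratio to the local background) and a −log10 q-value. Libraries had 8868777 to 16505239 fragments, and the effect of depth on weak sites was not tested. Pooled lists held peaks that no replicate list had.

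From these lists, promoter peaks (within 2 kb of a GENCODE TSS), locus peaks (gene body and 50 kb flanks) and overlaps of at least 1 bp were counted in Python 3.11.15 with matplotlib 3.10.9, scipy 1.17.1, pandas 2.3.3 and numpy 2.4.6. A gene's value was that of its promoter peak with the highest −log10 q. Antibodies were compared by two-sided exact permutation tests over replicates. The study describes the replicates as biological, and p-values come from exchanging their labels between the antibodies. All 9 members were named, with, per member, the highest-ranking pooled BRG1 peak outside promoters. That choice favours BRG1 in a comparison with PBRM1 at these sites. Other sites with a peak in several replicates were named after their values were seen. Members, lists (relatives, E proteins, Id genes, corepressors, microRNAs, and stromal, epithelial, endothelial and leukocyte markers) and tests were chosen with earlier results of these data known. Alternatives were other distances, flanks, q-values, transcript sets, peaks per list, replicate support, overlaps, ranks, lists cut to one length, and each replicate left out. The steps were tested on simulated data with planted peaks.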

Additional observations from a re-analysis of the deposited data

How the results depend on the processing

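Of the 3 differences between the antibodies, none passed the threshold, which 3 replicates against 3 cannot reach. Those in locus peaks and in locus peaks per 10000 peaks had the same direction under every alternative run on the replicate lists. The pooled lists, which were not among these alternatives, had the opposite order per 10000 peaks, 12.5 for PBRM1 and 10.8 for BRG1. The difference in mean percentile turned from −16.4 to 7.51 in lists of 20000 peaks ranked anew. This alternative was chosen after seeing the data and removes the weaker peaks of the longer BRG1 lists by construction. No pairing by replicate number was seen in the values: the deviations of same-numbered replicates at 13073 sites correlated at −0.0422, −0.0136 and −0.0127. Such correlations cannot show whether same-numbered replicates came from the same preparation of cells. With the replicate block, an exact sign-flip test over 3 pairs, the difference in locus peaks was −21.7 (p = 0.25, the smallest possible), in locus peaks per 10000 peaks −1.62 (p = 0.5) and in mean percentile −16.4 (p = 0.25). Over the alternatives with a replicate left out, these differences ranged from −25.7 to −18.2, from −2.66 to −0.546 and from −21.6 to −10.8.

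The pooled counts depended on replicate support. Genes with a pooled PBRM1 promoter peak went from 9 to 5 with peaks found in all 3 replicates, and to 5 to 7 with a replicate left out. Locus peaks went from 69 (PBRM1) and 89 (BRG1) to 38 and 54 with 10 kb flanks, to 140 for BRG1 with 100 kb flanks, to 13 and 26 with peaks found in all 3 replicates, and to 14 to 19 and 29 to 33 with a replicate left out. These settings remove or add peaks by construction. The share of PBRM1 locus peaks that overlap a BRG1 peak went from 75.4% to 87.0% at a −log10 q of at least 5, to 63.8% with an overlap of at least 50% of each peak, to 92.3% with peaks found in all 3 replicates, and to between 43.5% and 100% with a replicate left out. These last values also required a peak in both remaining replicates of that antibody, so 2 choices changed at once: 100% is that of the 14 to 19 PBRM1 peaks so supported, and 43.5% to 47.8% the share of all 69 that overlap a BRG1 peak so supported. When promoter fold enrichments were taken at the strongest pooled BRG1 promoter peak, 1 moved by more than its SD, that of *Zeb2* with PBRM1, to 3.32. Leaving out a replicate cannot move a mean by the SD of the same replicates, so those alternatives do not test the means. The fragments in single peaks are few, with a pileup of 10 to 67 at the strongest promoter peaks of the replicates, so that a missing peak in a replicate is no measure of absence.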
